A study of Rattus norvegicus with 6 samples.

Results

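The nucleus pulposus is the gelatinous core of the intervertebral disc, and its cells descend from the embryonic notochord. The genes described here, 10 in all, are used to recognise these cells, and were read in cultured rat nucleus pulposus cells given lactate or left untreated. They are the transcription factor genes Foxa2, Tbxt, Pax1 and Foxf1, the surface and adhesion genes Cd24 and Cdh2, the intermediate filament gene Krt19, the enzyme gene Car3, and the secreted factor genes Nog and Ptn. They were taken by name from the deposited table of 17273 genes. All 10 had a row, Car3 under its synonym Ca3, which is used below. Of the 10, 8 passed the filter on low counts and were tested, and Tbxt and Krt19 did not.

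The 3 lactate libraries came from wild-type nucleus pulposus cells of male Sprague Dawley rats given 10 mM lactate for 8 h, and the 3 control libraries from the same kind of cells with no treatment. Both groups were kept in DMEM with fetal bovine serum. The sources used here do not give the age of the rats, the passage of the cells or the form of the lactate. They also do not say if libraries are separate cultures or animals. The p-values therefore measure spread among the libraries, and that spread may be technical. Lactate libraries held 30291357 to 35512356 counts and control libraries 33584741 to 38989574.

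As background, FOXA2 and brachyury (TBXT) are transcription factors of the notochord, where they act with Sonic hedgehog signalling. PAX1 acts in the sclerotome, the tissue around the notochord that forms the vertebral column, and FOXF1 in mesenchyme that receives hedgehog signals. Noggin, which the notochord secretes, binds bone morphogenetic proteins (BMPs) and keeps them from their receptors.

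Cd24 rose with lactate, and Foxa2, Pax1 and Cdh2 fell. Foxf1, Ca3, Nog and Ptn did not pass the test, and Tbxt and Krt19 were at or near 0 in every library. In bulk RNA, fewer cells of a type and less RNA per cell cannot be told apart. Of the 8 tested genes, 1 was called higher and 3 lower with the quasi-likelihood test of edgeR (adjusted p under 0.05), where 66% of the 13747 genes tested were called, 31.4% higher and 34.6% lower. The members' share was thus not above the background. The 4 called genes kept their call and direction in all 17 alternative settings, while Foxf1, Ca3 and Nog were called in some of them. Some settings put most genes lower, and these could hardly remove a lower call.

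The scale on which a level is given matters in these libraries. TMM factors, which set the bulk of genes equal between libraries, were 0.702 to 0.806 in lactate and 1.327 to 1.363 in control libraries, so that the same counts stand for higher levels in lactate libraries. The median log2 fold change over all genes was −0.10 on the TMM scale, against −0.96 when only library totals were used. Fold changes below are log2 of lactate over control with TMM factors, with the standard error (SE), and the value with library totals is given beside them. Levels are CPM (counts scaled to library size) adjusted by TMM factors, and levels of different genes are compared only on the deposited FPKM, which is per length.

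The 300 bases around the start of transcription are shown for the gene that rose, Cd24, and for Foxa2 and Pax1, which fell and are neighbours in the rat genome. They are RefSeq sequences of the rat assembly GRCr8, from 250 bases before to 50 after the start, 5′ to 3′ on the strand of the gene. The Cd24 window is chr20:48656227-48656526 on the plus strand, the Foxa2 window chr3:155927459-155927758 on the minus strand and the Pax1 window chr3:155245279-155245578 on the plus strand. Capitals mark matches, on either strand, to the TATA-box letters TATAAA, the CCAAT box, the hypoxia response core ACGTG, the forkhead core TGTTTG and the GC-box letters GGGCGG.
Cd24: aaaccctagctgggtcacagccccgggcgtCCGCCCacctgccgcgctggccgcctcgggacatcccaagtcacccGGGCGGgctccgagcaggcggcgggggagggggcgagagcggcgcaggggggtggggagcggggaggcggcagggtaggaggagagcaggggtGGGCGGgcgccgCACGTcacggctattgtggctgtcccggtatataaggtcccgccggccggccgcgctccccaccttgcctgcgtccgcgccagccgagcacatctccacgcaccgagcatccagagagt
Foxa2: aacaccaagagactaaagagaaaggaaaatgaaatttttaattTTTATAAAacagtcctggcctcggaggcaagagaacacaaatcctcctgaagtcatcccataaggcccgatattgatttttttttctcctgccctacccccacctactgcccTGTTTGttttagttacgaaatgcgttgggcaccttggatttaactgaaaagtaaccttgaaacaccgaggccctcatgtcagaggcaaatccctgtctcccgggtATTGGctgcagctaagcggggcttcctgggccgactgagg
Pax1: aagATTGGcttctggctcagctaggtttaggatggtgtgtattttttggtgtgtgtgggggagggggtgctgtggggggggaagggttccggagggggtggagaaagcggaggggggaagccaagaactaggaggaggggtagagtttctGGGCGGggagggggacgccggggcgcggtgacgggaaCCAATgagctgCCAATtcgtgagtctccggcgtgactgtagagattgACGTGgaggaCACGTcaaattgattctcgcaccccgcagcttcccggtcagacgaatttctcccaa

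The Cd24 window, with 74% G and C, held GGGCGG at 3 places and ACGTG at 1. The Pax1 window held CCAAT at 3 places, ACGTG at 2 and GGGCGG at 1. The Foxa2 window, with 46.7% G and C, held TGTTTG at 1 place, 95 bases before the start, beside CCAAT at 1 and an overlapping pair of TATAAA matches on opposite strands. Of the 33469 windows of this length in the RefSeq table, 33.1% held GGGCGG, 37.5% CCAAT, 19.3% ACGTG, 17.8% TGTTTG and 14.2% TATAAA. These matches describe letters and not binding. Only the exact letters were searched, so variants such as tatataa in the Cd24 window are not marked. Of the 10 members, 6 had a window in the table, and those of Tbxt, Ptn and Nog are not shown. In GRCr8 no protein-coding gene is annotated between Pax1 and Foxa2, and the 5 other annotated genes between them had no row in the deposited table.

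On deposited FPKM the order in lactate libraries began with Cd24, at 56.5 ± 2.31 FPKM (SD, n = 3), and Pax1 came next at 32.2 ± 4.72. Foxf1 followed at 12.9 ± 1.29, Ca3 at 7.98 ± 0.549 and Cdh2 at 0.602 ± 0.142, with no overlap between neighbours down to Ptn. Ptn at 0.306 ± 0.0813 overlapped with Nog at 0.278 ± 0.146, which overlapped with Foxa2 at 0.133 ± 0.0412. Tbxt and Krt19 were listed at 0 in all 3 lactate libraries.

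In control libraries Pax1 stood far above the others, at 109 ± 18.6 FPKM (SD, n = 3), followed by Foxf1 at 22.0 ± 1.36, Cd24 at 20.7 ± 2.50 and Ca3 at 17.1 ± 3.43. Foxf1 and Cd24 overlapped, as did Cd24 and Ca3, so these neighbours do not differ beyond their spread. Cdh2 was at 2.40 ± 0.144, Nog at 1.02 ± 0.210 and Foxa2 at 0.959 ± 0.0426, with Nog and Foxa2 overlapping, and Ptn was at 0.436 ± 0.102 FPKM. Tbxt and Krt19 closed the order at 0.0553 ± 0.00414 and 0.0507 ± 0.0188 FPKM, and overlapped. Ranks among the 17273 genes do not depend on the scaling of a library. Cd24 had a median rank of 1121 in lactate and 3497 in control libraries, and Pax1 1863 in lactate and 560 in control libraries. Foxf1 kept close to its place, with median ranks of 3555 in lactate and 3292 in control libraries.

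**Figure D1:**
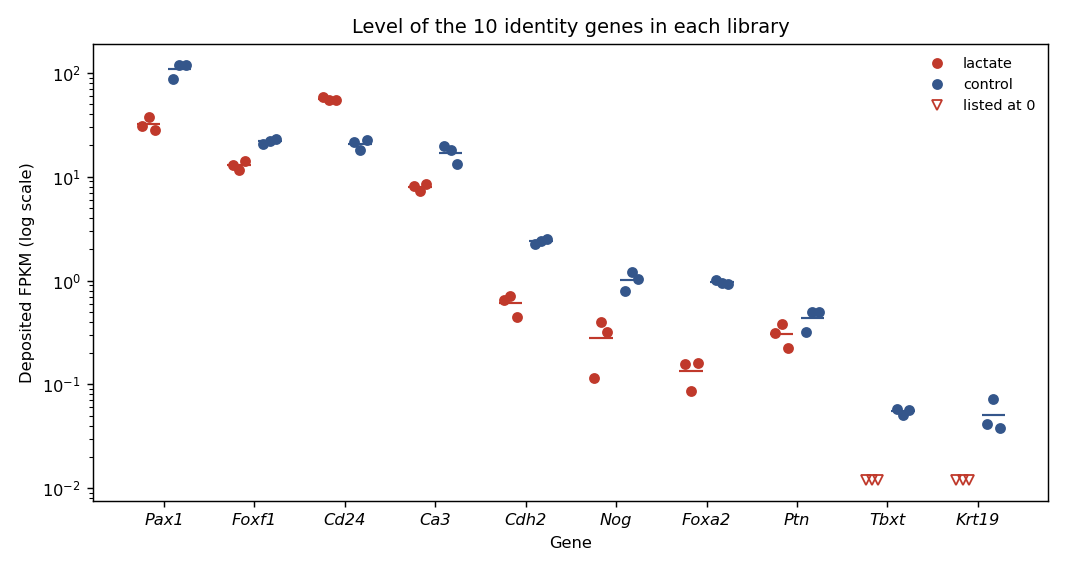
Deposited FPKM (log scale) of the 10 identity genes in each of the 3 lactate and 3 control libraries, ordered by the control mean. Points are libraries, bars are group means and open triangles mark libraries listed at 0, placed at the foot of the axis. Cd24 is the gene whose lactate libraries all lie above the control libraries, and Tbxt and Krt19 are at 0 in all 3 lactate libraries.

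Of the notochord factors, Foxa2 was the one with enough counts to test. Foxa2 had 11, 6 and 13 counts in the lactate libraries, against 78, 84 and 74 counts in the control libraries. Every lactate library was below every control library, also before any scaling. On TMM-scaled CPM it was at 0.499, 0.282 and 0.454 in lactate libraries and 1.71, 1.63 and 1.57 in control libraries. On the log2 scale Foxa2 differed by −1.97 ± 0.36 (SE; edgeR's adjusted p = 0.00135), a level 3.92-fold lower, and −2.82 ± 0.36 with library totals. Its place in the deposited table fell to a median rank of 12882 in lactate libraries, against 11753 in control libraries. An annotated long noncoding RNA overlaps Foxa2 in GRCr8, and the sources used here do not say if the counting used strand, so its reads cannot be told apart from those of Foxa2.

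Tbxt, a defining gene of notochordal cells, had 0, 0 and 0 counts in lactate libraries and 4, 4 and 4 in control libraries. The control counts, 12 in all, have an exact Poisson interval of 6.20 to 21.0 (95%, for counting error only). At the control rate 10.8 lactate counts would have been read on library totals and 5.97 with TMM factors. At the low end of the Poisson interval these become 5.57 and 3.09, against the 3 counts that a lactate count of 0 allows. With the control counts taken as exact, Tbxt was at least 3.59-fold lower on library totals and at least 1.99-fold lower with TMM factors. With the filter lifted, edgeR gave an adjusted p of 0.101 for Tbxt, while 52.2% of 17273 genes were called, 24.2% higher and 28% lower. In the authors' deposited table Tbxt had a log2 fold change of −4.66 and an adjusted p of 0.0400, in a table where 51.6% of genes were under 0.05. A defining marker of notochordal cells was thus close to absent from cells labelled as nucleus pulposus cells, in both groups.

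The factors of the sclerotome and mesenchyme were the abundant ones. Pax1 had 2783, 3315 and 2921 counts in lactate libraries and 8521, 13530 and 12078 in control libraries. On TMM-scaled CPM it was at 126, 156 and 102 in lactate libraries, against 186, 262 and 256 in control libraries, with no overlap. Groups failed to overlap on this scale for 72.2% of all genes tested, and for 78.6% on CPM by library totals. The log2 fold change of Pax1 was −0.88 ± 0.18 (SE; edgeR adjusted p = 0.00259), and −1.75 ± 0.16 with library totals. With the trend on transcript length removed it was −0.62 (edgeR adjusted p = 0.0170), in a fit that called 64% of all genes, 33.5% higher and 30.4% lower.

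Foxf1 had 998, 896 and 1280 counts in lactate libraries and 1746, 2173 and 2050 in control libraries. On TMM-scaled CPM these became 45.3, 42.1 and 44.7 in lactate libraries and 38.2, 42.1 and 43.5 in control libraries, and the groups overlapped. Its log2 fold change was 0.09 ± 0.10 (SE; edgeR adjusted p = 0.436), with a 95% interval of −0.14 to 0.33. The direction and call of Foxf1 hung on the scaling. It was called lower with library totals, at −0.76 ± 0.12 (edgeR adjusted p = 0.000542), and called higher with the length trend removed, at 0.30 (edgeR adjusted p = 0.0273).

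The surface glycoprotein CD24 is used to sort nucleus pulposus cells. Cd24 had 3456, 3203 and 3723 counts in lactate libraries and 1364, 1326 and 1506 in control libraries. Every lactate library exceeded every control library in raw counts, although lactate libraries held fewer counts on average. On TMM-scaled CPM Cd24 was at 157, 151 and 130 in lactate libraries and 29.8, 25.7 and 31.9 in control libraries. On the log2 scale Cd24 differed by 2.32 ± 0.13 (SE; adjusted p of edgeR = 2.67e-06), a level 5.00-fold higher, and 1.46 ± 0.12 with library totals, or 2.74-fold higher. By library totals 74.3% of all genes were called, 12.5% higher and 61.8% lower.

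Cdh2 encodes N-cadherin, the calcium-dependent adhesion protein by which nucleus pulposus cells hold together in clusters. Cdh2 had 89, 98 and 71 counts in lactate libraries, against 337, 421 and 394 counts in control libraries. Lactate libraries were all lower, at 4.04, 4.61 and 2.48 TMM-scaled CPM, against 7.37, 8.16 and 8.36 CPM in control libraries. For Cdh2 the log2 fold change was −1.11 ± 0.25 (SE; edgeR adjusted p = 0.00378), and −1.98 ± 0.22 with library totals. With the length trend removed it was −0.68, and the adjusted p of edgeR, 0.0465, was just under the threshold.

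Krt19 encodes a keratin of simple epithelia that notochordal cells also carry. Krt19 had 0, 0 and 0 counts in lactate libraries and 3, 4 and 2 in control libraries. The 9 control counts have an exact Poisson interval of 4.12 to 17.1. At the control rate 8.08 lactate counts would have been read on library totals and 4.48 with TMM factors, or 3.69 and 2.05 at the low end of that interval. With TMM factors the low end is under the 3 counts that a lactate count of 0 allows, so a difference in Krt19 was not detectable at this depth on that scale. With the filter lifted, edgeR gave an adjusted p of 0.150. A long noncoding RNA overlaps this gene as well in GRCr8.

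Ca3 encodes carbonic anhydrase 3, a cytosolic enzyme that is also abundant in fat and in slow muscle. Ca3 had 411, 367 and 490 counts in lactate libraries and 1082, 1160 and 751 in control libraries, the third control library being the lowest of its group. On TMM-scaled CPM it was at 18.6, 17.3 and 17.1 in lactate libraries and 23.7, 22.5 and 15.9 in control libraries, and the groups overlapped. For Ca3 the log2 fold change was −0.23 ± 0.17 (SE; edgeR adjusted p = 0.261), with a 95% interval of −0.61 to 0.16. With library totals Ca3 was called lower, at −1.09 ± 0.18 (edgeR adjusted p = 0.000668).

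The secreted factors were low and variable. Nog, encoding noggin, had 6, 21 and 20 counts in lactate libraries and 45, 80 and 61 in control libraries, with lactate library 1 far under the others. On TMM-scaled CPM it was at 0.272, 0.988 and 0.699 in lactate libraries and 0.984, 1.55 and 1.29 in control libraries, a narrow overlap between the highest lactate and the lowest control library. For Nog the log2 fold change was −0.96 ± 0.48 (SE; edgeR adjusted p = 0.105), with a 95% interval of −2.05 to 0.13. Nog was called lower with library totals, at −1.82 ± 0.47 (edgeR adjusted p = 0.00792). The call also turned on 1 library: without lactate replicate 2 it was −1.36 (edgeR adjusted p = 0.0462), and without lactate replicate 1 it was −0.59 (edgeR adjusted p = 0.244). In GRCr8 a second protein-coding gene with a similar name, Nogl1, overlaps Nog, so the split of reads between them is uncertain.

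Ptn, which encodes the heparin-binding growth factor pleiotrophin, had 13, 16 and 11 counts in lactate libraries and 15, 26 and 24 in control libraries. On TMM-scaled CPM it was at 0.590, 0.753 and 0.384 in lactate libraries and 0.328, 0.504 and 0.509 in control libraries, and the groups overlapped. For Ptn the log2 fold change was 0.35 ± 0.46 (SE; edgeR adjusted p = 0.533), with a 95% interval of −0.71 to 1.40, and −0.52 ± 0.44 with library totals (edgeR adjusted p = 0.309). These counts leave room for a change in either direction.

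**Figure D2:**
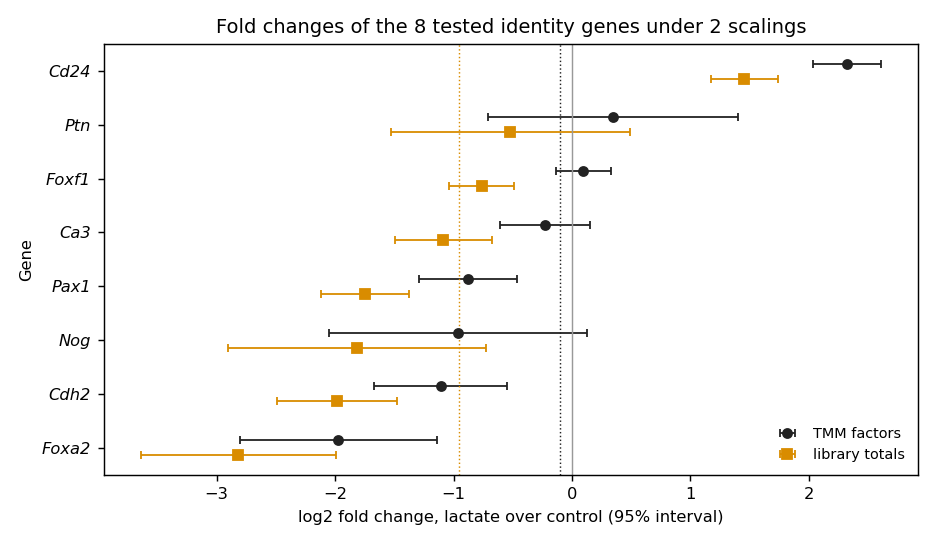
Log2 fold change of lactate over control for the 8 tested identity genes with TMM factors (black circles) and with library totals (orange squares), with 95% intervals. Dotted lines mark the median over all 13747 genes tested on each scale, −0.10 and −0.96. Cd24 is higher and Foxa2, Pax1 and Cdh2 lower on both scales, while the intervals of Foxf1, Ca3 and Nog include 0 with TMM factors and lie below 0 with library totals.

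A comparison that needs no scaling is the ratio of 2 genes within a library. Foxf1 was taken as the common denominator after its values were seen, since it lay nearest to 0 with TMM factors, and the ratios therefore show unequal change and not which gene moved. Per 100 Foxf1 counts there were 346, 357 and 291 Cd24 counts in lactate libraries, against 78.1, 61.0 and 73.5 in control libraries, a ratio 4.68 times as high. For Pax1 there were 279, 370 and 228 in lactate libraries and 488, 623 and 589 in control libraries.

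Cdh2 showed the tightest control values of this comparison, at 8.92, 10.9 and 5.55 per 100 Foxf1 counts in lactate libraries and 19.3, 19.4 and 19.2 in control libraries. Foxa2 was at 1.10, 0.670 and 1.02 in lactate libraries and 4.47, 3.87 and 3.61 in control libraries. Over the 13746 other genes tested, 71.4% had ratios to Foxf1 that did not overlap between the groups. Of the 9 members set against Foxf1, 7 did not overlap, which are Cd24, Pax1, Cdh2, Foxa2, Nog and, with 0 counts in all lactate libraries, Tbxt and Krt19. Tbxt and Krt19 did not pass the filter and are not among the 13746 genes, so the 7 of 9 is not to be read as above 71.4%. For the 7 members without overlap the two-sided exact permutation p was 0.1. That is the smallest that 3 libraries against 3 can give (0.129 adjusted over 9 ratios). For Ca3 and Ptn the groups overlapped (exact permutation p = 0.4).

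**Figure D3:**
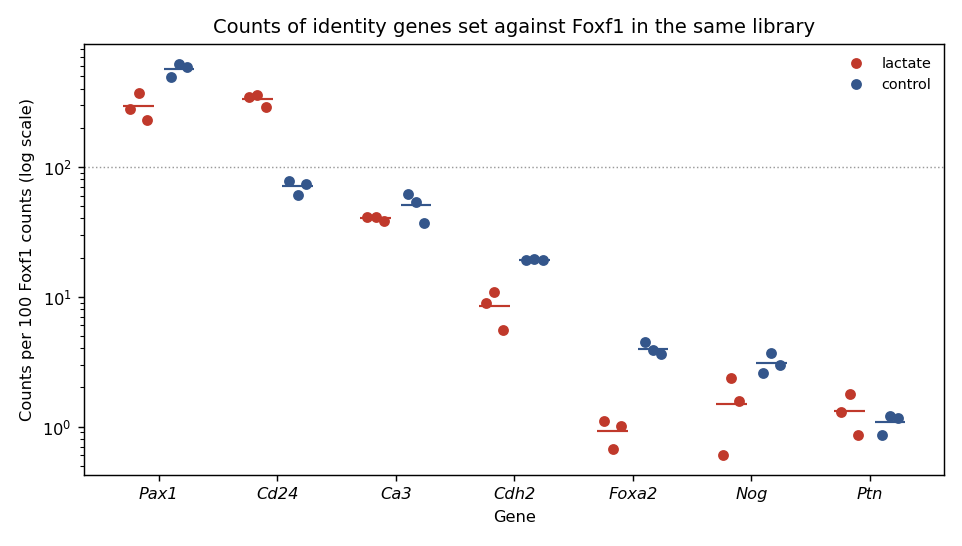
Counts of 7 identity genes per 100 Foxf1 counts of the same library (log scale), for 3 lactate and 3 control libraries, with bars at the group means and a dotted line at 100. Cd24 lies between 291 and 357 in lactate libraries and under 100 in control libraries, and Pax1, Cdh2, Foxa2 and Nog lie lower in every lactate library than in any control library.

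The genes whose profiles over the 6 libraries were most like those of the 4 called members were sought among 7812 genes with a mean of at least 10 CPM, by the root mean square difference of centred log2 CPM. For Cd24 they were Tmem39a (0.0721), Msmo1 (0.0741) and Sowahc (0.0748), and for Foxa2 Zbtb22 (0.0880), Eogt (0.0932) and Ipo11 (0.102). For Pax1 they were Sdk2 (0.0775), Eif4g3 (0.0833) and Tns2 (0.0919), and for Cdh2 Ssbp4 (0.0693), Ahr (0.0740) and Fbf1 (0.0833). These likenesses are a description over 6 libraries that share 1 contrast.

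Of 21 other genes listed as markers of notochord and nucleus pulposus, 17 were found in the table and 16 tested. The other 4, Noto, Shh, Krt18 and Foxf2, had no row under these names. Of the 16 tested, 7 were called higher, 2 lower and 7 not called. The list also holds factors of sclerotome and cartilage (Pax9, Nkx3-2, Sox5, Sox6 and Sox9), and the 2 lower genes, Nkx3-2 and Sox5, are among these. The median log2 fold change of the 16 genes was 0.16. By library totals it was −0.69, and 1 gene was higher and 9 lower. Over all 13747 genes tested, 31.4% were higher and 34.6% lower with TMM factors (median −0.10). With library totals 12.5% were higher and 61.8% lower (median −0.96). The lists below are to be read beside the same shares. Slc2a1, the glucose transporter GLUT1, rose by 1.89 ± 0.09 (SE; edgeR adjusted p = 2.04e-06) and stayed higher with library totals, at 1.03. Nkx3-2, a sclerotome factor that PAX1 and PAX9 switch on in the mouse embryo, had 26, 14 and 36 counts in lactate libraries and 390, 472 and 379 in control libraries. Nkx3-2 fell by 3.04 ± 0.27 (edgeR adjusted p = 2.02e-05), while Pax9, the close relative of Pax1, was at 0.03 ± 0.25 and not called, but lower by library totals (−0.81).

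In the same list the SOX factors of cartilage differed in direction. Sox6 rose by 1.37 ± 0.23 and Sox9 by 1.45 ± 0.28, neither called with library totals (0.51 and 0.56), while Sox5 fell by 2.42 ± 0.73 with only 16 lactate and 167 control counts. Hif1a, the hypoxia factor that nucleus pulposus cells carry at all times, rose by 0.84 ± 0.11 with TMM factors but not by library totals (−0.03). Vim, the intermediate filament vimentin, was called higher with TMM factors (0.31 ± 0.12) and called lower with library totals (−0.56). Foxa1, the close relative of Foxa2, had 25 lactate and 42 control counts and was not called, at 0.28 ± 0.52, or −0.58 by library totals. Krt8, a keratin that notochordal cells carry with Krt19, had 394 lactate and 1014 control counts and was at −0.34 ± 0.18, not called, but lower by library totals (−1.21). Lgals3 had a mean of 267 FPKM in lactate and 482 in control libraries and was not called (0.02 ± 0.11). Ncam1, at 42.9 and 75.9 FPKM, was not called (0.03 ± 0.12), nor was Cd55 (−0.15 ± 0.23), while Basp1 was called higher (0.33 ± 0.11). By library totals Lgals3, Ncam1, Cd55 and Basp1 were called lower (−0.84, −0.83, −1.02 and −0.53). Pax9, Sox5, Sox9, Foxa1, Krt8, Lgals3, Ncam1, Cd55 and Basp1 were named after their values were seen.

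Of 11 tested genes for BMP ligands, which noggin binds, and for BMP receptors, 6 were lower, 2 higher and 3 not called, with a median of −0.79. By library totals the median was −1.64, with 7 lower and 0 higher, where 61.8% of all genes tested were lower (median −0.96). Bmp4 fell by 2.82 ± 0.13 (SE; edgeR adjusted p = 1.93e-06), Bmpr1a, a type I receptor, by 1.06 ± 0.16 and Bmpr1b by 0.89 ± 0.17, while the receptor Acvr2a rose by 0.71 ± 0.13 but was not called by library totals (−0.15). Other BMP antagonists were split, with 5 of 11 higher and 4 lower, or 3 higher and 5 lower by library totals. On deposited FPKM Nog was far below Grem1 (gremlin), which stood at 21.5 ± 2.20 in lactate and 357 ± 15.3 FPKM in control libraries (SD, n = 3). Grem1 fell by 3.17 ± 0.13, and Fstl3, Nbl1 and Fstl1 rose by 1.66 ± 0.11, 1.34 ± 0.12 and 1.38 ± 0.12, with the same calls on library totals.

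Of 9 tested partners and relatives of pleiotrophin, 7 were higher and 2 lower, against 2 higher and 3 lower by library totals. The syndecans, heparan sulfate proteoglycans of the cell surface, went both ways. Sdc4 rose by 1.87 ± 0.23 and Sdc1 by 1.52 ± 0.11, while Sdc3 fell by 0.70 ± 0.10, all 3 with the same call on library totals. Lrp1, a large endocytic receptor, rose by 0.91 ± 0.11 but was not called by library totals (0.04).

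N-cadherin binds the catenins, which tie it to actin. Of 8 other cadherins and catenins tested, 4 were higher and 4 lower, against 1 higher and 7 lower by library totals. Ctnnb1, beta-catenin, fell by 1.99 ± 0.10 (SE; edgeR adjusted p = 1.96e-06), and so did Cdh11 (−2.96 ± 0.14) and Cdh3 (−1.10 ± 0.17). Cdh13, a cadherin held to the membrane by a lipid anchor, rose by 1.59 ± 0.14 and was also higher with library totals (0.72).

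Forkhead factors other than Foxa2 and Foxf1 showed 3 higher, 4 lower and 4 not called of 11, against 2 higher and 7 lower by library totals. Foxp1 fell by 1.26 ± 0.14 and Foxm1, of cell division, by 1.58 ± 0.20, while Foxc2 rose by 1.80 ± 0.27 and Foxo3 by 1.36 ± 0.16, all 4 with the same call on library totals. Of 9 hedgehog pathway genes, 5 were lower, 1 higher and 3 not called, with a median of −0.74 (−0.10 over all genes tested). By library totals the median was −1.59, with 8 lower and 0 higher, where 61.8% of all genes tested were lower (median −0.96). Gas1 and Boc, coreceptors for hedgehog ligands, fell by 2.63 ± 0.22 and 2.04 ± 0.11. Smo, the signalling receptor, fell by 1.23 ± 0.14 and Gli3, a transcription factor of the pathway, by 0.94 ± 0.17. Ptch1 was the gene called higher, at 0.48 ± 0.14 (edgeR adjusted p = 0.0143), but was not called by library totals (−0.37). Gli1, with 24 lactate and 82 control counts, was at −0.74 ± 0.46, not called, but lower by library totals (−1.59). Ptch1 and Gli1 were named after their values were seen. Shh and Ihh had no row under these names.

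The families of Krt19 and Ca3 were small. Of 4 keratins tested, Krt17 was higher, Krt80 lower (−1.03 ± 0.23) and 2 not called. Krt17, a keratin of injured epithelium, had 329, 346 and 163 counts in lactate libraries and 10, 7 and 18 in control libraries, so that it rose by 5.63 ± 0.52 on the log2 scale (SE; edgeR adjusted p = 2.67e-05) and 4.74 with library totals. Of 8 carbonic anhydrases beside Ca3, 4 were higher, 2 lower and 2 not called, against 1 higher and 4 lower by library totals. Ca11 rose by 1.25 ± 0.22 but was not called by library totals (0.38). Ca9, the hypoxia-induced surface enzyme and the highest of the family on FPKM, was called higher with TMM factors (0.63 ± 0.09) and lower with library totals (−0.23). Ca14 rose by 2.16 ± 0.36 and Ca5b, a mitochondrial form, fell by 0.65 ± 0.11, with the same calls on library totals.

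**Figure D4:**
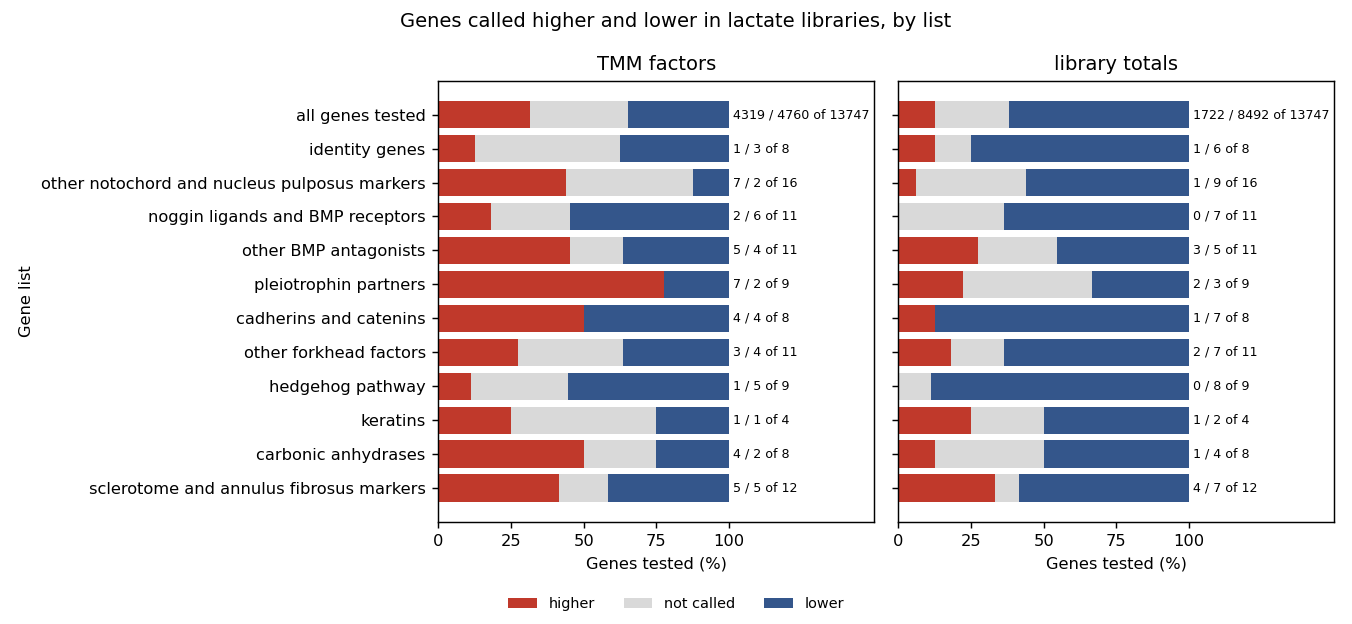
Share of tested genes called higher (red), not called (grey) and lower (blue) in lactate libraries for the identity genes, 10 lists of related genes and all genes tested, with TMM factors (left) and library totals (right). Numbers at the right give higher and lower counts of the genes tested. On library totals 61.8% of all genes tested were lower, against 34.6% with TMM factors.

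The annulus fibrosus is the fibrous ring around the nucleus pulposus. Of 12 tested markers of sclerotome and annulus fibrosus, 5 were higher, 5 lower and 2 not called (4 higher and 7 lower by library totals). Their summed FPKM was 14781 to 18231 in lactate and 7910 to 9164 in control libraries, most of it Col1a1, which rose by 1.97 ± 0.16. In this list Meox2 fell by 3.33 ± 0.17 and Mkx, a tendon factor, by 2.36 ± 0.17, while Igfbp6 rose by 1.69 ± 0.11 and Thy1 by 1.24 ± 0.10, all with the same call on library totals.

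Markers of other cell types were read as summed FPKM and, for genes outside the naming rule, as counts. Adipocyte markers summed to 0.699 to 1.39 FPKM in lactate and 2.12 to 2.46 in control libraries. Of the 6 found in the table, Pparg fell by 1.41 ± 0.39 and Lpl rose by 1.99 ± 0.46 but was not called by library totals. Adipoq had 5 lactate and 3 control counts, Plin1 0 and 7, Lep 0 and 4, and Fabp4 22 and 44, not called. Skeletal muscle markers summed to 43.9 to 49.4 FPKM in lactate and 26.0 to 30.4 in control libraries, nearly all from Des, which rose by 1.99 ± 0.14, and Acta1 (0.70 ± 0.19, or −0.16 and not called by library totals), while Ckm had 3 lactate and 0 control counts and Tnnt3 35 and 95, not called. Macrophage markers summed to 1.80 to 2.41 FPKM in lactate and 7.61 to 8.14 in control libraries. Nearly all of the control sum was Cd14, at 7.24, 7.69 and 6.75 FPKM, which fell by 1.72 ± 0.19. Cd68 rose by 1.48 ± 0.40 but was not called by library totals. Adgre1 had 0 lactate and 4 control counts, Csf1r 36 and 23, and Itgam 3 and 2. Endothelial markers summed to at most 0.0598 FPKM in lactate and 0.0936 in control libraries, where Vwf had 19 lactate and 29 control counts and was not called, Kdr 9 and 0, and Tek 3 and 22. Epithelial markers summed to at most 0.0648 FPKM in lactate and 0.0479 in control libraries, where Epcam had 0 lactate and 4 control counts, Cldn4 3 and 0, and Krt14 2 and 0. The part of these markers in the changes of the identity genes was not tested.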

How the data were processed

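RNA sequencing counts of 6 libraries, 3 lactate and 3 control, were taken from a table of 17273 genes. Per the file headers it holds raw read counts per gene and FPKM for each library, and the authors' own log2 fold changes, p-values and adjusted p-values. FPKM values were scaled by the authors per transcript length and library size. The authors' log2 fold changes and p-values were only quoted for Tbxt. The aligner, counter, annotation and strandedness were not given in the sources used here. Builds named in the submitters' processing notes are GRCm38 and mm10, both of mouse, while the deposited names are those of rat genes, and no coordinates come from the files. A smaller deposited table of selected genes was not used. Promoter sequences are RefSeq's, of GRCr8.

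Counts were tested as deposited with edgeR 4.0.16 in R 4.3.3 (quasi-likelihood test, TMM factors, filterByExpr, group as the only term, Benjamini-Hochberg adjustment over 13747 genes), with calls at adjusted p under 0.05. SE values come from the F statistic. The floor for a count of 0 was 3 counts, which is 0.0581 to 0.141 TMM-scaled CPM per library and covers counting error only.

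The alternatives tried were library totals, upper-quartile and RLE factors, no filter, a filter of 1 CPM, DESeq2 1.42.0, limma-voom (limma 3.58.1), limma-trend on log2 FPKM with a pseudocount of 1 or of 0.1, a replicate block, removal of a trend on transcript length (relative length taken from counts and FPKM), and each library left out in turn. The fits were also run on simulated counts in which 200 of 13747 genes were changed. There edgeR recovered 64% of the 2-fold and 98% of the 4-fold changes. False calls were 13 of 175 with edgeR, 46 of 227 with DESeq2 and 10 of 170 with limma-voom. In the real libraries 66% of genes were called, so the simulation does not show how the fits perform there. The members and lists were chosen with earlier results of these data known. All 10 members are named, and from each list up to 4 called genes with the smallest p, the most abundant gene of each marker list, and the genes most like each called member. A list is described by its counts and median, with no set test.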

Additional observations from a re-analysis of the deposited data

How the results depend on the processing

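Over 17 alternatives (16 for Ptn, which had too few counts for the filter of 1 CPM), Cd24 stayed called higher and Foxa2, Pax1 and Cdh2 called lower in every setting. Their log2 fold changes ranged over 1.41 to 2.43 for Cd24, −2.82 to −0.79 for Foxa2, −1.75 to −0.62 for Pax1 and −1.98 to −0.68 for Cdh2. Library totals and limma-trend on FPKM put most genes lower, so they could hardly remove a lower call. The value nearest 0 for Foxa2 came from limma-trend on log2(FPKM + 1), a scale that understates changes of low genes. The number of members called lower was 6 in place of 3 with library totals and with limma-trend at both FPKM pseudocounts, 1 and 0.1, through Foxf1, Ca3 and Nog. In these settings 8492, 8759 and 8737 of all 13747 genes were called lower, against 4760 in the main fit. The rise among the members thus went with that of the whole table. The number called higher was 2 in place of 1 with the length trend removed, through Foxf1. Foxf1 turned lower with upper-quartile factors (−0.063, not called), library totals (−0.76) and limma-trend with a pseudocount of 1 (−0.73) and of 0.1 (−0.77). Ptn turned lower, without a call, with library totals (−0.52) and limma-trend (−0.14 and −0.40). With each library left out in turn, 1 member was called higher and 3 to 4 lower, and 8026 to 9407 genes were called in all, against 9079. The other 11 settings called 8671 to 10540 genes. Deviations of same-numbered lactate and control libraries correlated at 0.00776, 0.0381 and 0.084, and those of differently numbered ones at −0.108 to 0.0713. Whether same-numbered libraries share an animal or a culture was not tested. With the replicate block 8814 genes were called, and members stayed at 1 higher and 3 lower. Of 79 genes of the lists called with TMM factors, 53 had the same call with library totals, 18 were not called and 8 had the opposite call, and all 37 lower ones stayed lower against 16 of 42 higher ones. Library totals move the median log2 fold change over all genes tested from −0.10 to −0.96. Lower calls therefore tend to stay and higher calls tend to be lost, whatever the genes. Why the 2 scalings differ in these libraries was not tested. Depth limits Tbxt, Krt19, Ptn, Nog and Foxa2, each with under 100 counts in every library.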
